A study of Homo sapiens with 9 samples.

Results

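Polyamine synthesis and antizyme genes are described here in hCMEC/D3, an immortalised line of human brain microvascular endothelial cells that stands in for the blood-brain barrier in culture. The genes were chosen by name, with earlier results of these data known: ODC1, AMD1, SRM and SMS (synthesis), OAZ1 and OAZ2 (antizymes), AZIN1 (antizyme inhibitor) and SAT1 (breakdown). All 8 were listed among the 15570 genes of the deposited table, and all 8 were among the 10818 genes that reached 1 FPKM (sequenced fragments relative to transcript length and to all mapped fragments) in at least 3 libraries and were tested. RNA was measured in 9 libraries, 3 in each of 3 groups. Cells of the OGD/R group went through 4 h of oxygen and glucose deprivation and then 16 h in normal medium under 21% O2 and 5% CO2. The OGD group was grown to 80% confluence and deprived in the same way, in medium without glucose under 95% N2 and 5% CO2 for 4 h, with no return to oxygen. The labels give no further handling of the control group and name no control kept for the 16 h of reoxygenation. All groups are 1 cell line, and nothing states that the replicates were separate cultures, so the p-values cover no more than the spread among these libraries, and that may be technical.

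Polyamines (putrescine, spermidine and spermine) are small positively charged molecules that bind RNA and that growing cells need for translation. ODC1 makes putrescine from ornithine, AMD1 makes the aminopropyl donor from S-adenosylmethionine, SRM joins both into spermidine, and SMS makes spermine from spermidine. Antizymes bind ODC1 protein, send it to the proteasome and reduce polyamine uptake. AZIN1 resembles ODC1 without its activity and holds antizyme away from it, while SAT1 acetylates spermidine and spermine for export or back-conversion. Much of this control acts on translation and protein turnover, which RNA levels do not show.

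Antizyme messages carry their regulation in their sequence. Translation of OAZ1 and OAZ2 meets a stop codon early, and polyamines promote a shift of the ribosome by 1 base that passes it. The stretches below, from GENCODE v29 transcripts on GRCh38, show that site in both genes, with the in-frame TGA stop in capitals; the annotated coding sequence leaves out the first base of that stop, chr19:2271443 on the plus strand for OAZ1 and chr15:64691515 on the minus strand for OAZ2.
OAZ1: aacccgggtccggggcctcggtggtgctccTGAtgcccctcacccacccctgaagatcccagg
OAZ2: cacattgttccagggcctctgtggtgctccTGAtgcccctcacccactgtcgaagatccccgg
OAZ1 has 66 codons before the stop and 160 after the shift, and OAZ2 has 32 before and 157 after. Base for base, the stretches matched at 51 of 63 places, at 28 of 33 from the stop on and at 23 of 30 before it. The antizymes thus share this site closely.

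ODC1 is a textbook target of the transcription factor MYC, which binds with MAX at the E-box CACGTG (a palindrome, so both strands read alike). RefSeq promoter windows (GRCh38.p14, stretches of equal length around a start site, 10 windows) matched 7 of the 8 genes; AZIN1 had no entry. The E-box stood in 2 of the 10 windows, those of SRM and ODC1, and in 2548 of 35116 windows of all genes (7.26%). The stretches below, on the minus strand, show the motif in capitals, at chr1:11060183-11060242 for SRM and chr2:10447988-10448057 for ODC1.
SRM: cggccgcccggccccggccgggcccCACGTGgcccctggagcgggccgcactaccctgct
ODC1: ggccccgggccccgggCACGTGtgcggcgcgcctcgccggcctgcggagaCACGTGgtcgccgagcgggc
The SRM motif (chr1:11060212-11060217) lies at -199 bases from the gene's start, on its upstream side. Both ODC1 motifs (chr2:10448036-10448041 and chr2:10448002-10448007) lie downstream of the outermost start, by 286 and 320 bases, in an intron of 1 annotated transcript and upstream of another. On both strands, the amino acid response motif TGATGNAA (3.62% of all windows) and the endoplasmic reticulum stress element ERSE (0.0769%) were not in the members' windows. At such low shares, absence from 10 short windows (chr1:11059969-11060268 for SRM) says little about these genes. These matches describe letters in a window, not binding.

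Several features of the libraries moved with the groups, and their part in the results was not tested. FPKM summed to 442696 to 449248 in OGD/R, 585947 to 605818 in OGD and 454237 to 537878 in control libraries. The 79 ribosomal protein genes held 13.1% to 17.0% of that sum in OGD/R, 29.1% to 30.6% in OGD and 17.5% to 22.7% in control libraries. Log2 values rose by 0.132 to 0.228 per doubling of transcript length in OGD/R, fell by 0.150 to 0.202 in OGD, and changed by -0.0707 to 0.0550 in control libraries, each relative to the mean of all libraries. On the log2 scale the median gene stood at -0.31 in OGD against control, 0.39 in OGD/R against OGD and 0.065 in OGD/R against control. Each comparison was therefore also read relative to its median gene. Of 12 endothelial markers, 11 were listed and 4 passed the filter; EGFL7 had 4.14 to 14.8 FPKM and CDH5 at most 2.62, while VWF, CLDN5, KDR and TEK stayed at or below 0.101 FPKM, so the label rests on few of its defining markers. Their summed level was 15.3 to 17.7 FPKM in OGD/R, 6.47 to 9.37 in OGD and 14.2 to 19.3 in control libraries. Fibroblast markers (3 of 5 passing, LUM, COL1A1 and COL1A2, with PDGFRA at most 0.0118 FPKM) summed to 51.9 to 69.2, 9.17 to 10.7 and 20.4 to 28.2 FPKM in the same order. Pericyte and smooth muscle markers (4 of 6 passing) summed to 17.1 to 19.5, 6.14 to 7.71 and 10.2 to 13.7 FPKM, and leukocyte markers (2 of 6 passing, mostly CD68, with PTPRC at most 0.1004) to 27.6 to 29.6, 21.5 to 22.5 and 18.2 to 21.6 FPKM. Astrocyte and neuron markers summed to at most 0.534 FPKM and epithelial markers to at most 0.344 FPKM. In bulk RNA, fewer cells of a type and less RNA per cell cannot be told apart.

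The levels of the 8 genes spanned a wide range, in FPKM, which is per transcript length. In OGD/R libraries OAZ1 led with 675 ± 21.8 FPKM, followed by SMS (148 ± 12.2), SRM (81.7 ± 3.39), SAT1 (57.5 ± 6.19), OAZ2 (44.0 ± 0.509), AMD1 (42.1 ± 4.74), ODC1 (39.2 ± 1.67) and AZIN1 (38.4 ± 4.00; SD, n = 3 throughout). OAZ1 led in OGD libraries too, with 841 ± 42.4 FPKM, ahead of SAT1 (263 ± 1.84), SRM (127 ± 8.33), SMS (111 ± 6.01), ODC1 (90.6 ± 0.904), AMD1 (33.9 ± 3.91), AZIN1 (19.2 ± 1.60) and OAZ2 (17.1 ± 1.07). The control order was OAZ1 (849.8 ± 35.7 FPKM), SAT1 (132 ± 2.71), SMS (120.3 ± 3.34), SRM (60.3 ± 5.78), ODC1 (42.4 ± 1.04), AMD1 (40.2 ± 5.44), OAZ2 (35.3 ± 4.30) and AZIN1 (33.6 ± 4.15). Neighbours whose libraries overlapped were OAZ2 and AMD1, AMD1 and ODC1, and ODC1 and AZIN1 in OGD/R, AZIN1 and OAZ2 in OGD, and ODC1 and AMD1, AMD1 and OAZ2, and OAZ2 and AZIN1 in control. SAT1 thus stood next to OAZ1 at the top in OGD and control libraries and below SMS and SRM in OGD/R libraries. Reads may be shared with named pseudogenes for AMD1 (4), SRM (3), SMS (1) and OAZ1 (1), and with overlapping genes for AMD1 (CDK19) and SAT1 (LOC127933115), since the use of strand is not given in the sources used here.

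**Figure D1:**
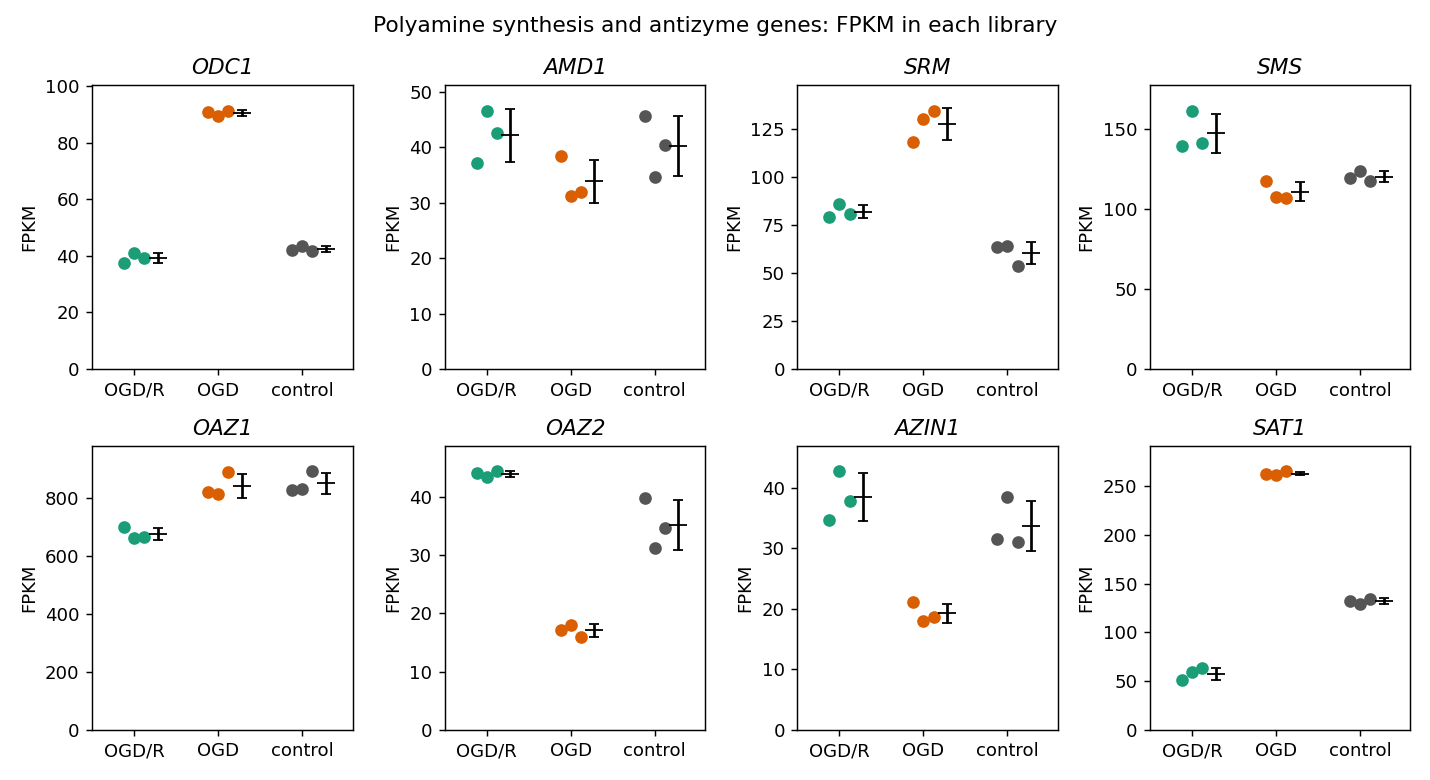
FPKM of each gene (vertical axes, each starting at 0) in the OGD/R, OGD and control libraries; coloured points are libraries and black marks the mean with SD (n = 3). ODC1, SRM and SAT1 were highest in the OGD libraries, OAZ2 and AZIN1 lowest there.

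Among the synthesis enzymes, ODC1 (chr2:10439968-10448327), which starts the pathway, was highest in the OGD group. It had 37.5, 40.8 and 39.3 FPKM in OGD/R libraries, 90.7, 89.6 and 91.3 in OGD libraries, and 42.1, 43.6 and 41.6 in control libraries. The OGD libraries lay above all others, and every OGD/R library lay below every control library. ODC1 rose by 1.08 on the log2 scale in OGD against control (SE 0.08, adjusted p = 1.45e-06, limma with Benjamini-Hochberg adjustment over all 10818 genes), which is 1.39 above the median gene. It fell by 1.19 in OGD/R against OGD (SE 0.08, adjusted p = 1.72e-07; -1.58 relative to the median gene); with libraries scaled to a common sum that value was -0.78. Its OGD/R level did not pass the test against control (-0.11, SE 0.08, adjusted p = 0.267), but was -0.21 (adjusted p = 0.0358) under median-of-ratios scaling, in which each library is divided by its median ratio to the average library, and turned to 0.035 with a common sum.

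SRM (chr1:11054589-11060018), the spermidine synthase, was highest in OGD, as ODC1 was, and stood between OGD and control in OGD/R. OGD/R libraries had 79.1, 85.5 and 80.4 FPKM, OGD libraries 118, 129.9 and 134 FPKM, and control libraries 63.4, 63.9 and 53.6 FPKM. None of the 3 groups overlapped. SRM was higher by 1.07 (SE 0.09, adjusted p = 5.48e-06) in OGD than in control, lower by -0.63 (SE 0.09, adjusted p = 6.41e-05) in OGD/R than in OGD, and higher by 0.44 (SE 0.09, adjusted p = 0.00284) in OGD/R than in control, on the log2 scale. Relative to the median gene these were 1.38, -1.02 and 0.37. The OGD/R against OGD value of SRM was -0.21 (adjusted p = 0.109) with a common sum, -0.31 (adjusted p = 0.0255) with the trend on transcript length removed and -1.12 under median-of-ratios scaling; the OGD/R against control value was 0.66 with the length trend removed.

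SMS (chrX:21940709-21994837), the spermine synthase, and AMD1 (chr6:110814617-110895713), S-adenosylmethionine decarboxylase, did not follow that pattern. SMS had 139, 162 and 142 FPKM in OGD/R libraries, 118, 108 and 107 in OGD libraries, and 119, 124 and 118 in control libraries. AMD1 had 37.2, 46.6 and 42.7 FPKM in OGD/R libraries, 38.4, 31.3 and 31.97 in OGD libraries, and 45.6, 34.7 and 40.4 in control libraries. For SMS the OGD/R libraries lay above both other groups, which overlapped by their nearest values; for AMD1 the groups overlapped in each comparison. SMS passed the test in OGD/R against OGD (0.41, SE 0.09, adjusted p = 0.00100) and against control (0.29, SE 0.09, adjusted p = 0.0177), but not in OGD against control (-0.12, SE 0.09, adjusted p = 0.246). Relative to the median gene the SMS value in OGD/R against OGD was 0.02. Under median-of-ratios scaling SMS turned to -0.080 (adjusted p = 0.386) in OGD/R against OGD and to 0.26 (adjusted p = 0.0182) in OGD against control, while a common sum gave 0.83 and -0.39 (adjusted p = 0.00443). Its OGD/R against control call was lost under median-of-ratios scaling (adjusted p = 0.0801), with only those 2 groups in the fit (adjusted p = 0.0561) and when OGD/R replicate 2 was left out (adjusted p = 0.0647). AMD1 passed the test only in OGD/R against OGD (0.31, SE 0.12, adjusted p = 0.0399), a call lost without any 1 of 4 libraries (OGD/R replicates 2 and 3, OGD replicates 2 and 3; adjusted p = 0.0932 to 0.149), and its sign turned to -0.17 under median-of-ratios scaling and -0.20 with the length trend removed. It stood at -0.24 in OGD against control (adjusted p = 0.112), turning to 0.13 and 0.14 under those scalings, and at 0.068 in OGD/R against control (adjusted p = 0.683), turning to -0.037 and -0.060. Without control replicate 2 the OGD against control value of AMD1 was -0.34 (adjusted p = 0.0332), and with a common sum it was -0.51 (adjusted p = 0.00336). Of the 18 alternative settings, 9 kept the OGD/R against OGD call of AMD1, 7 lost it and 2 turned its sign.

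Of the antizymes, OAZ2 was lowest in the OGD group. OAZ2 (chr15:64687574-64703281) had 44.1, 43.4 and 44.4 FPKM in OGD/R libraries, 17.2, 18.1 and 15.9 in OGD libraries, and 39.8, 31.2 and 34.8 in control libraries. Its OGD libraries lay below both other groups, and its OGD/R libraries lay above the control libraries. OAZ2 was lower in OGD than in control by -0.9996 (SE 0.10, adjusted p = 1.59e-05; -0.69 relative to the median gene) and rose by 1.32 in OGD/R against OGD (SE 0.10, adjusted p = 5.14e-07; 0.93 relative); under median-of-ratios scaling these were -0.63 and 0.85. Against control the OGD/R value was 0.32 higher (SE 0.10, adjusted p = 0.0232), a call lost without OGD/R replicate 1, OGD/R replicate 3 or control replicate 2 (adjusted p = 0.0538 to 0.0696), under median-of-ratios scaling (adjusted p = 0.0940) and with only those 2 groups in the fit (adjusted p = 0.0559).

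OAZ1 (chr19:2269486-2273488), the most abundant of the 8, had 700.3, 661 and 664 FPKM in OGD/R libraries, 819, 814 and 889.7 in OGD libraries, and 828, 830.1 and 891 in control libraries. OGD and control libraries overlapped, and the OGD/R libraries lay below both. In OGD against control OAZ1 stood at -0.016 (SE 0.09, adjusted p = 0.891), but at 0.37 (adjusted p = 0.0357) under median-of-ratios scaling, -0.52 (adjusted p = 0.000398) under quantile normalization and -0.29 (adjusted p = 0.00555) with a common sum, so no direction is given for it. It was lower in OGD/R than in OGD by -0.32 (SE 0.09, adjusted p = 0.00809), but that sign turned to 0.34 under quantile normalization, 0.11 with a common sum and 0.085 with the length trend removed, was -0.81 under median-of-ratios scaling, and without OGD replicate 3 it missed the threshold (-0.27, adjusted p = 0.0518). In OGD/R against control it was -0.33 (SE 0.09, adjusted p = 0.0124), which did not pass without OGD/R replicate 3 (adjusted p = 0.0518), under quantile normalization (adjusted p = 0.0591), with a common sum (adjusted p = 0.0853), with the length trend removed (-0.076, adjusted p = 0.392) or with only those 2 groups in the fit (adjusted p = 0.0506). Whether OAZ1 and OAZ2 differ in their change was not tested.

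AZIN1 (chr8:102826302-102864200), the antizyme inhibitor, was lowest in OGD, as OAZ2 was. It had 34.7, 42.7 and 37.8 FPKM in OGD/R libraries, 21.0, 18.01 and 18.6 in OGD libraries, and 31.6, 38.4 and 30.9 in control libraries. The OGD libraries lay below all others, while OGD/R and control libraries overlapped. AZIN1 fell by 0.77 in OGD against control (SE 0.11, adjusted p = 0.000189; -0.46 relative to the median gene) and rose by 0.96 in OGD/R against OGD (SE 0.11, adjusted p = 1.18e-05; 0.57 relative). With the length trend removed these were -0.34 and 0.33, and under median-of-ratios scaling -0.41 and 0.49, each past the threshold. OGD/R stood at 0.19 against control (SE 0.11, adjusted p = 0.201), turning to -0.011 with the length trend removed.

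SAT1 (chrX:23783173-23786210), the acetyltransferase of polyamine breakdown, had the widest swing of the 8 in the values as deposited. OGD/R libraries had 50.7, 59.0 and 62.8 FPKM, OGD libraries 263, 262 and 265 FPKM, and control libraries 132, 129 and 135 FPKM. The 3 groups did not overlap, with OGD/R lowest and OGD highest. SAT1 rose by 0.99 in OGD against control (SE 0.09, adjusted p = 6.94e-06), fell by 2.18 in OGD/R against OGD (SE 0.09, adjusted p = 9.75e-09), and was lower in OGD/R than in control by -1.19 (SE 0.09, adjusted p = 4.95e-06). Relative to the median gene these were 1.30, -2.57 and -1.26. With the length trend removed, the OGD against control value of SAT1 was 0.80, below those of ODC1 (1.36) and SRM (0.98). Its OGD/R against OGD value ranged from -2.67 to -1.72 over all settings. Synthesis (ODC1) and breakdown (SAT1) messages were thus both higher in OGD than in control, and SAT1 of this pair was called below control in OGD/R.

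The members and the other gene lists were chosen with earlier results of these data known. The shares of all genes printed beside their counts are therefore a reference and no test. Counted together, 3 of the 8 genes were higher in OGD than in control (11.3% of all genes tested were) and 2 were lower (46.7%), out of 58% called in either direction. The members' median was -0.067 against -0.31 for all genes. In OGD/R against OGD 4 were higher (53.3% of all genes) and 4 lower (17.4%), with 70.7% of all genes called, AMD1, SMS and OAZ1 being the members whose sign turned under another scaling; the medians were -0.0043 and 0.39. In OGD/R against control 3 were higher (24.7%) and 2 lower (16.5%), with 41.2% of all genes called; the medians were 0.13 and 0.065. The 5 members called in OGD/R against control became 3 without OGD/R replicate 3 and 2 with only those 2 groups in the fit. All genes called there went from 4460 of 10818 to 3406 of 10673 and to 3567 of 10818. The 5 members called in OGD against control became 8 with a common sum, while all genes called went from 6272 to 7690 of 10818. The members' directions also depended on the scaling. In OGD against control 5 were higher and 2 lower under median-of-ratios scaling, 3 and 3 under quantile normalization, 3 and 5 with a common sum, and 3 and 2 with the length trend removed. For OGD/R against OGD these counts were 2 and 4, 4 and 3, 4 and 2, and 3 and 3, and for OGD/R against control 1 and 3, then 3 and 1 under each of the others. The same held for all genes. OGD against control had 1218 genes higher and 5054 lower as deposited, but 2930 and 2422 under median-of-ratios scaling, 2166 and 2427 under quantile normalization, 2312 and 2321 with the length trend removed, and 611 and 7079 with a common sum. OGD/R against OGD had 5770 higher and 1878 lower, but 3432 and 3783, 3399 and 3386, and 3242 and 3163 under the same alternatives, and 7748 and 840 with a common sum. OGD/R against control had 2673 higher and 1787 lower, but 2342 and 2550 under median-of-ratios scaling, 2394 and 2504 under quantile normalization, and 3368 and 933 with a common sum. Each pair of comparisons shares the libraries of 1 group (OGD, OGD/R or control), so opposite signs in such a pair are not independent.

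**Figure D2:**
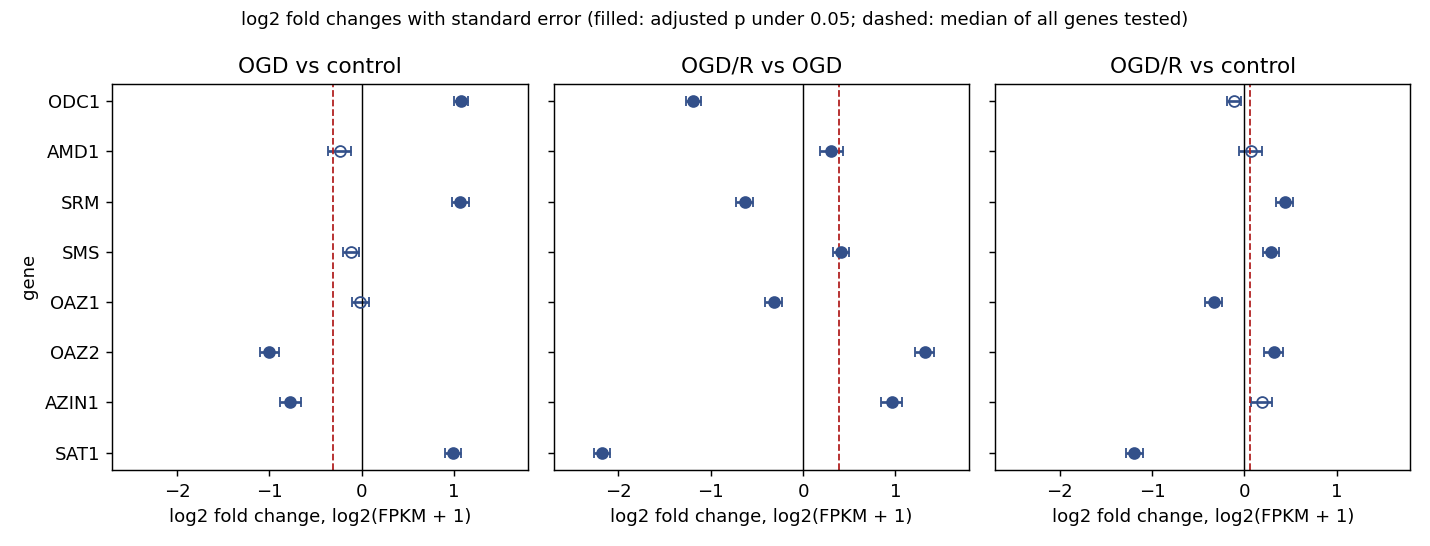
log2 fold change of each gene with its standard error in the 3 comparisons (horizontal axes, log2(FPKM + 1) scale); filled points passed an adjusted p of 0.05 and the dashed line marks the median of all genes tested. ODC1, SRM and SAT1 lay on the higher side in OGD against control, at 1.08, 1.07 and 0.99, and OAZ2 and AZIN1 on the lower side, at -0.9996 and -0.77.

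**Figure D3:**
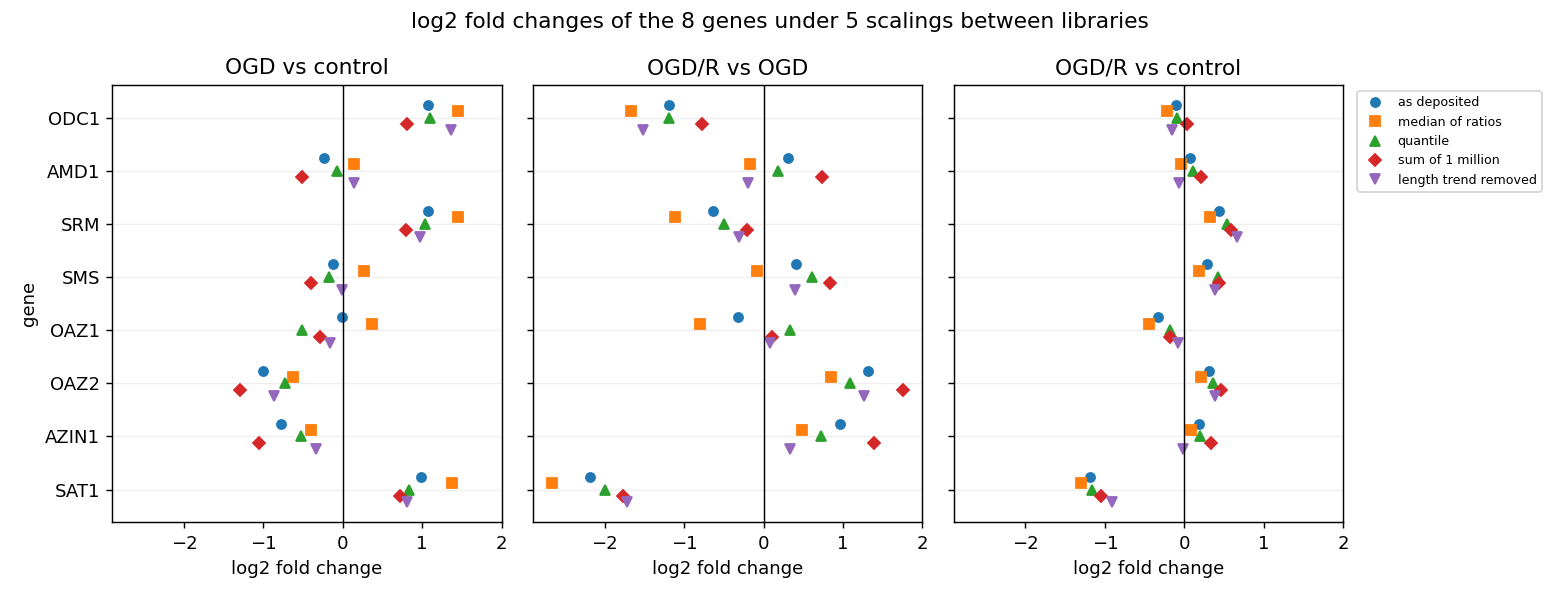
log2 fold change of each gene (horizontal axes) in the 3 comparisons under 5 scalings of the libraries, 1 symbol per scaling. In OGD against control and in OGD/R against OGD the values of ODC1, SRM, SAT1, OAZ2 and AZIN1 kept their side of 0 under all 5, while OAZ1, SMS and AMD1 crossed it in at least 1 scaling.

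A factor common to a whole library cancels in the ratio of 2 of its genes, apart from the pseudocount, but quantile normalization and removal of the length trend do not cancel. Each ratio was tested by a 2-sided exact permutation test of log2 ratios of (FPKM + 1) over 3 against 3 libraries, which cannot give a p below 0.1. ODC1 stood at 0.0536, 0.0618 and 0.0592 of the FPKM of OAZ1 in OGD/R libraries, 0.111, 0.110 and 0.103 in OGD libraries, and 0.0508, 0.0525 and 0.0467 in control libraries. The OGD libraries were above all others, by 1.09 against control on the log2 scale, with OGD/R lower than OGD by -0.87 and above control by 0.22 (exact permutation p = 0.1 each, 0.1125 adjusted over the 9 ratio tests). These were 1.61, -1.53 and 0.087 under quantile normalization, and 1.52, -1.6002 and -0.082 with the length trend removed, so the sign of OGD/R against control turned. SAT1 to ODC1 was 1.35 to 1.60 in OGD/R, 2.89 to 2.92 in OGD and 2.97 to 3.24 in control libraries, so OGD and control differed by -0.088, OGD/R from OGD by -0.99 and OGD/R from control by -1.08 (exact permutation p = 0.1 each). SAT1 has the shorter transcript (1065 bases against 2653 for ODC1), and with the length trend removed these were -0.55, -0.20 and -0.76; under quantile normalization the first was -0.26. SRM to SMS was 0.529 to 0.568 in OGD/R, 1.003 to 1.26 in OGD and 0.456 to 0.532 in control libraries. The log2 difference was 1.19 for OGD against control and -1.04 for OGD/R against OGD (exact permutation p = 0.1 each), while OGD/R and control overlapped (0.15, exact permutation p = 0.2; 0.28 and exact permutation p = 0.1 with the length trend removed).

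**Figure D4:**
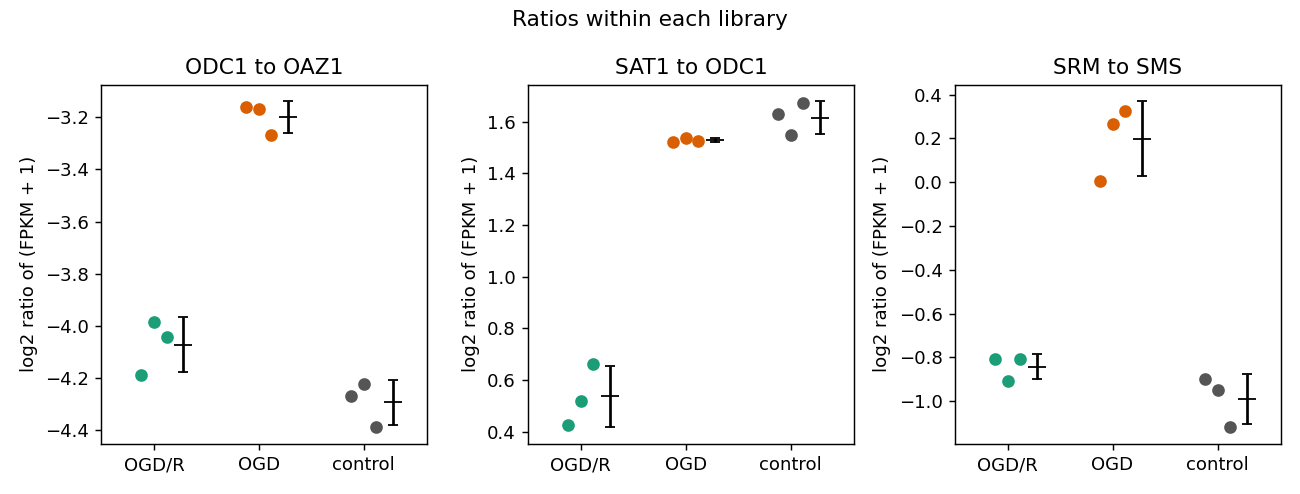
log2 ratio of (FPKM + 1) within each library (vertical axes) for ODC1 to OAZ1, SAT1 to ODC1 and SRM to SMS in the OGD/R, OGD and control libraries; points are libraries and black marks the mean with SD (n = 3). The OGD libraries stood apart in ODC1 to OAZ1 and SRM to SMS, and the OGD/R libraries in SAT1 to ODC1, in values without removal of the length trend.

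Other genes of polyamine breakdown and antizyme control moved in their own ways. SMOX, the oxidase that turns spermine back into spermidine, had 13.1 ± 1.103 FPKM in OGD/R, 6.51 ± 0.129 in OGD and 7.45 ± 1.56 in control libraries. It was higher in OGD/R than in OGD by 0.90 (adjusted p = 9.43e-05) and than in control by 0.75 (adjusted p = 0.00122), so SMOX was highest in the group where SAT1 was lowest. PAOX, which oxidises acetylated polyamines, was lower in OGD (1.70 ± 0.0702 FPKM) than in control (3.91 ± 1.70) by -0.81 (adjusted p = 0.00397), a call lost under quantile normalization (adjusted p = 0.0597). AZIN2, the other antizyme inhibitor, was lower than in control (9.39 ± 2.48 FPKM) both in OGD/R (4.37 ± 1.19, log2 fold change -0.95, adjusted p = 0.00832) and in OGD (4.26 ± 1.53, -1.003, adjusted p = 0.00426). The OGD call of AZIN2 was lost under quantile normalization (adjusted p = 0.0702). Of the 3 tested genes of back-conversion and oxidation, 1 was higher (11.3% of all genes were) and 1 lower (46.7%) in OGD than in control, 1 was higher (53.3%) and 1 lower (17.4%) in OGD/R than in OGD, and 1 was higher (24.7%) and 2 lower (16.5%) in OGD/R than in control. Over the 5 scalings the lower counts ranged from 0 to 2, 0 to 1 and 0 to 2. Those of all genes ranged from 2321 to 7079, 840 to 3783 and 933 to 2550. The call of SAT2, the 1 gene higher in OGD, was lost with a common sum (adjusted p = 0.678) and with the length trend removed (adjusted p = 0.473).

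Of 8 tested genes of arginine and ornithine supply, 4 were higher (11.3% of all genes were) and 1 lower (46.7%) in OGD than in control, 1 was higher (53.3%) and 3 lower (17.4%) in OGD/R than in OGD, and 2 were higher (24.7%) and 1 lower (16.5%) in OGD/R than in control. Over the 5 scalings 1 to 6 were higher in OGD than in control (611 to 2930 of all genes). In OGD/R against OGD 1 to 7 were lower (840 to 3783 of all genes). Of the 4 higher in OGD, ARG2 kept its call under all 5. ARG2, the mitochondrial arginase that makes ornithine, had 3.13 ± 0.692 FPKM in OGD/R, 7.20 ± 0.637 in OGD and 3.50 ± 1.25 in control libraries, higher in OGD than in control by 0.90 (adjusted p = 0.00247) and lower in OGD/R than in OGD by -0.999 (adjusted p = 0.000711). SLC7A1, a carrier of arginine and other cationic amino acids, was higher in OGD/R (12.1 ± 1.36 FPKM) than in OGD (6.37 ± 0.703) by 0.83 (adjusted p = 0.000115) and than in control (7.51 ± 0.919) by 0.62 (adjusted p = 0.00266), with the OGD/R against OGD call lost when the length trend was removed (adjusted p = 0.192). OAT, which draws ornithine off, was lower in OGD (97.4 ± 1.67 FPKM) than in control (129.7 ± 3.68) by -0.41 (adjusted p = 0.00160), a call lost under median-of-ratios scaling (-0.029, adjusted p = 0.760).

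On the methionine side, MAT2A and MAT2B, the catalytic and regulatory subunits that make S-adenosylmethionine, were lower in OGD than in control, by -0.62 (adjusted p = 0.000691) and -0.75 (adjusted p = 0.000476). Under median-of-ratios scaling these were -0.24 and -0.38, and with the length trend removed -0.32 and -0.38, each past the threshold. MAT2A had 134 ± 16.1 FPKM in OGD/R, 83.6 ± 5.34 in OGD and 129.7 ± 15.6 in control libraries, and its OGD/R against OGD value of 0.67 (adjusted p = 0.000191) was no longer called under median-of-ratios scaling (adjusted p = 0.0842). MTAP and MRI1 salvage methylthioadenosine, the by-product of spermidine and spermine synthesis. MTAP had 10.5 ± 1.12 FPKM in OGD/R, 5.02 ± 0.323 in OGD and 7.27 ± 0.580 in control libraries, higher in OGD/R than in OGD by 0.93 (adjusted p = 2.38e-05) and lower in OGD than in control by -0.46 (adjusted p = 0.00622); the first call was lost with the length trend removed and the second under median-of-ratios scaling, quantile normalization and removal of the length trend. MRI1 was lower in OGD (8.13 ± 0.733 FPKM) than in control (20.3 ± 7.51) by -1.16 (adjusted p = 0.00102). Of 8 tested genes of this list, 2 were higher (11.3% of all genes were) and 4 lower (46.7%) in OGD than in control, 4 were higher (53.3%) and 4 lower (17.4%) in OGD/R than in OGD, and 1 was higher (24.7%) and 2 lower (16.5%) in OGD/R than in control. Over the 5 scalings 3 to 5 were lower in OGD than in control (2321 to 7079 of all genes). In OGD/R against OGD 1 to 4 were higher (3242 to 7748 of all genes) and 0 to 4 lower (840 to 3783), with 0 lower under a common sum.

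Of the transport genes, SLC3A2, a heavy chain of amino acid carriers that is also linked to polyamine export, was highest in OGD, like ODC1. It had 100.2 ± 5.34 FPKM in OGD/R, 182 ± 5.59 in OGD and 79.6 ± 18.3 in control libraries, higher in OGD than in control by 1.20 (adjusted p = 2.41e-05) and lower in OGD/R than in OGD by -0.85 (adjusted p = 8.07e-05). ATP13A2, the lysosomal polyamine exporter, was lower in OGD (4.36 ± 1.09 FPKM) than in control (6.99 ± 1.62) by -0.57 (adjusted p = 0.0130) and higher in OGD/R (6.98 ± 0.404) than in OGD by 0.59 (adjusted p = 0.00825); both calls of ATP13A2 were lost under median-of-ratios scaling, quantile normalization and removal of the length trend, and the first also without OGD replicate 1 (adjusted p = 0.0582) or control replicate 1 (adjusted p = 0.0536). Among 4 tested transport genes, 1 was higher (11.3% of all genes were) and 1 lower (46.7%) in OGD than in control, 2 were higher (53.3%) and 1 lower (17.4%) in OGD/R than in OGD, and 1 was higher (24.7%) in OGD/R than in control. The 2 higher in OGD/R than in OGD were ATP13A2 and the related ATP13A3. Neither was called higher under median-of-ratios scaling, quantile normalization or removal of the length trend. Under median-of-ratios scaling ATP13A3 turned to -0.11 (0.37 as deposited). Under quantile normalization and with the length trend removed, 2 of the 4 genes were lower in OGD/R than in OGD, as were 3386 and 3163 of all genes.

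Spermidine is also the source of hypusine, the residue that activates the translation factor eIF5A. EIF5A had 538 ± 9.05 FPKM in OGD/R, 409 ± 8.78 in OGD and 328 ± 27.1 in control libraries, and OGD/R was above control by 0.72 (adjusted p = 0.000101). DHPS and DOHH, the enzymes of the first and the last step of hypusine formation, changed in opposite directions in OGD/R against control. DHPS was lower in OGD/R (31.7 ± 1.66 FPKM) than in control (47.8 ± 2.78) by -0.58 (adjusted p = 0.000268), and DOHH was higher in OGD/R (9.78 ± 1.08 FPKM) than in control (5.64 ± 0.183) by 0.69 (adjusted p = 0.000615). Of the 4 tested genes, 1 was higher (11.3% of all genes were) in OGD than in control, 3 were higher (53.3%) and 1 lower (17.4%) in OGD/R than in OGD, and 2 were higher (24.7%) and 1 lower (16.5%) in OGD/R than in control. The last counts were the same under all 5 scalings. The 3 higher in OGD/R than in OGD were not called under median-of-ratios scaling, where DOHH was 0.19 (adjusted p = 0.136) and EIF5A and EIF5A2 turned to -0.096 and -0.019. In the same comparison 1 was higher and 1 lower under quantile normalization (3399 and 3386 of all genes). With the length trend removed 2 were higher and 2 lower (3242 and 3163 of all genes). With a common sum 3 were higher and 0 lower (7748 and 840 of all genes). EIF5A, the 1 gene higher in OGD than in control (0.32), was not called under quantile normalization (adjusted p = 0.422) or with a common sum (adjusted p = 0.582).

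**Figure D5:**
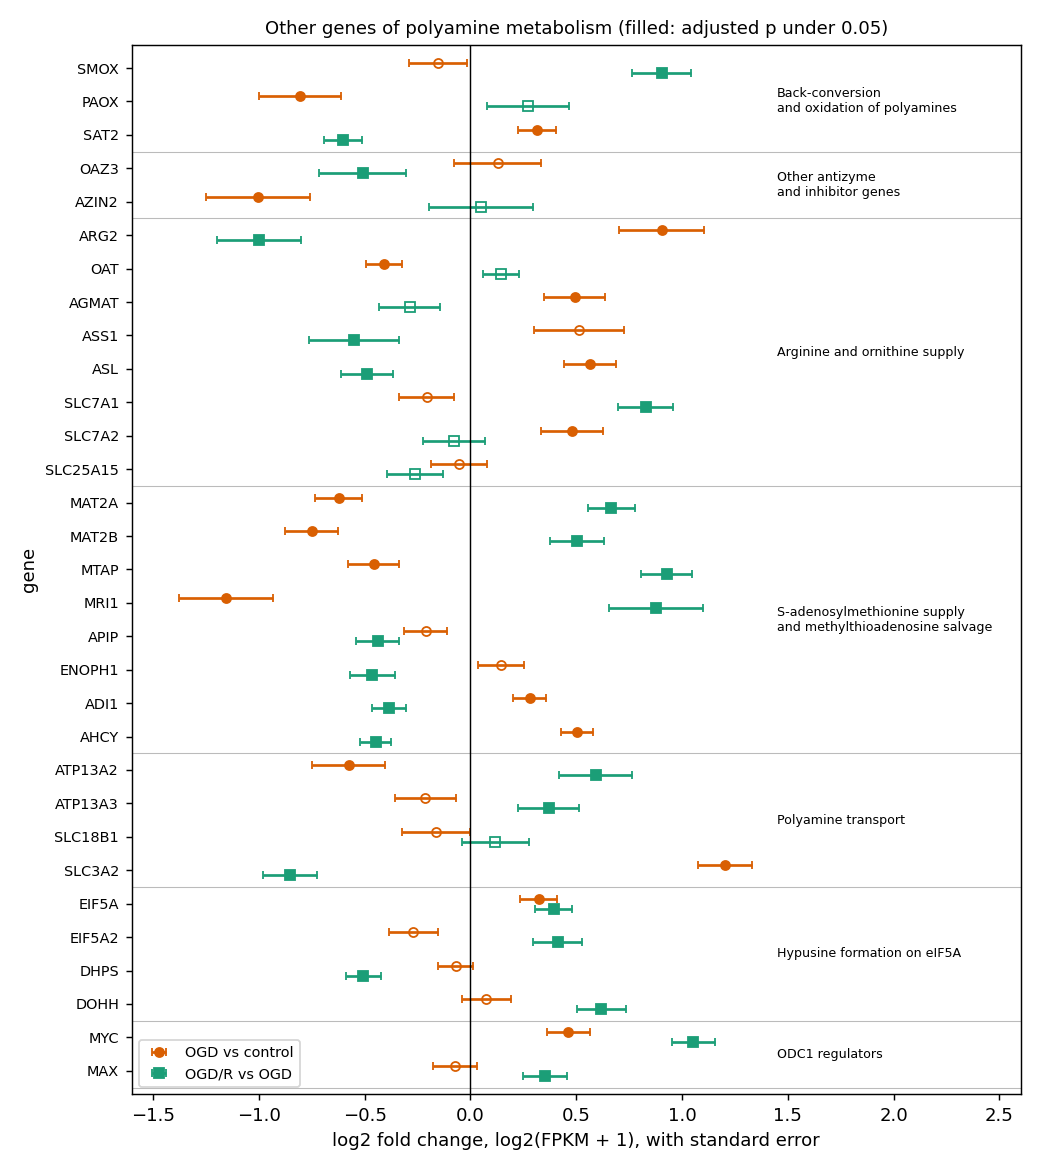
log2 fold change with standard error (horizontal axis, log2(FPKM + 1) scale) of the other genes of polyamine metabolism, grouped by list, in OGD against control (circles) and OGD/R against OGD (squares); filled symbols passed an adjusted p of 0.05. SLC3A2 lay at 1.20 and -0.85 in these comparisons, and SMOX at -0.15 and 0.90.

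MYC was highest in OGD/R, while ODC1 and SRM, whose windows hold the E-boxes printed above, were highest in OGD. Whether MYC acts on either gene in these cells was not tested, and MYC protein and binding were not measured. MYC had 74.8, 89.4 and 76.4 FPKM in OGD/R libraries, 36.7, 38.9 and 38.5 in OGD libraries, and 30.9, 25.5 and 25.8 in control libraries. The groups did not overlap. In OGD against control MYC, ODC1 and SRM were all higher, and in OGD/R against control MYC and SRM (0.44) were. MYC was higher in OGD than in control by 0.46 (adjusted p = 0.00224), in OGD/R than in OGD by 1.05 (adjusted p = 2.58e-06) and in OGD/R than in control by 1.52 (adjusted p = 2.54e-06); the OGD against control call was lost with a common sum (0.20, adjusted p = 0.139). MAX, its partner, had 24.3 ± 2.61 FPKM in OGD/R, 18.8 ± 1.44 in OGD and 19.8 ± 0.944 in control libraries, and was higher in OGD/R than in OGD by 0.35 (adjusted p = 0.00875), with the sign turning to -0.12 under median-of-ratios scaling and -0.10 with the length trend removed.

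The genes most like ODC1 and SAT1 over the 9 libraries were picked by Pearson's r of log2(FPKM + 1) among 5351 genes with a mean of at least 10 FPKM over the libraries; as the libraries form 3 groups, r mostly describes the group means, and no p is given. For ODC1 they were DKK1 (a secreted Wnt inhibitor, r = 0.996), ADORA2B (an adenosine receptor, 0.993), HSPA5 (the chaperone BiP of the endoplasmic reticulum, 0.993), NIFK (a nucleolar protein, 0.992) and EVI2A (0.992). HSPA5 averaged 72.2 FPKM in OGD/R, 691 in OGD and 70.7 in control libraries. The genes most like SAT1 were ASNS (asparagine synthetase, r = 0.996), RSL24D1 (a ribosome assembly factor, 0.995), PSAT1 (an enzyme of serine synthesis, 0.994), GTF3A (a transcription factor of 5S rRNA, 0.993) and C12orf75 (0.993). ASNS averaged 25.0 FPKM in OGD/R, 118 in OGD and 62.3 in control libraries. That is the order of groups of SAT1, which follows from the choice by r.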

How the data were processed

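RNA of 9 hCMEC/D3 libraries was measured by RNA-seq; per the labels' protocols, total RNA went into a SMARTer mRNA kit. The authors deposited 1 FPKM value per gene and library, on GRCh38 per the submitters' processing notes. Aligner, quantification tool, annotation and strand setting: not given in the sources used here. The depth per library is unknown, as low values showed no steps of whole reads, and no counting interval or floor is given.

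The 10818 genes that reached 1 FPKM in 3 or more libraries were tested as log2(FPKM + 1), a scale that understates changes of low genes, with limma 3.58.1 in R 4.3.3. All 9 libraries entered 1 fit of 3 groups (eBayes with an intensity trend, 6 residual and 6.33 prior degrees of freedom), with Benjamini-Hochberg adjustment over all genes and a threshold of 0.05. The script was tested on simulated data. Ratios of 2 genes were compared by exact permutation, and figures were drawn in Python 3.11.15 with matplotlib 3.10.9. Coordinates and promoters are from RefSeq (GRCh38.p14), frameshift stretches and transcript lengths from GENCODE v29.

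The members and gene lists were chosen with earlier results of these data known. All 8 members are named; of each other list, at most 4 genes past the threshold with the largest change in a comparison, plus SMOX, PAOX, MAT2A, MTAP, EIF5A, ATP13A3, ARG2, MYC and MAX. Alternatives were other scalings (median of ratios, quantile, a common sum, as in TPM, transcript length trend removed), a pseudocount of 0.1, no filter, a robust prior, the replicate block, only the 2 groups compared, and each library left out.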

Additional observations from a re-analysis of the deposited data

How the results depend on the processing

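Of 24 results (8 genes in 3 comparisons) under 18 alternatives each, 385 values kept direction and call, 22 lost the call, 6 gained it and 19 turned sign; 11 results held under every alternative, among them ODC1, SRM and SAT1 in OGD against control. The cause of the changes was not tested. Members called numbered 8 in OGD against control (main 5) with libraries scaled to a common sum, where 7690 of all 10818 genes were called (main 6272). They numbered 2 in OGD/R against control (main 5) with only the 2 groups compared, where 3567 of all 10818 genes were called (main 4460). With 1 library left out, members called ranged from 5 to 6 in OGD against control and 6 to 8 in OGD/R against OGD. In OGD/R against control the range was 3 to 5, the 3 without OGD/R replicate 3, where 3406 of 10673 genes were called. Deviations from the group means correlated at -0.200 to 0.148 between samples with the same replicate number, and at -0.242 to 0.370 between others. With 3 libraries a group, these values cannot tell whether the numbers pair the samples, and the labels do not say. With the replicate block, 5956, 7452 and 4128 genes were called in the comparisons in the same order (6272, 7648 and 4460 without it), and 5, 7 and 5 members; AMD1 in OGD/R against OGD was no longer called (adjusted p = 0.0519). Quantile normalization, the common sum, median-of-ratios scaling and removal of the length trend were added for the ratios after seeing the data; of their values, that of ODC1 to OAZ1 in OGD/R against control turned sign (-0.082, length trend removed). The paired ratio tests gave p = 0.25, the smallest an exact sign-flip test of 3 pairs allows. Without a library, genes called ranged from 5142 to 6692, 6843 to 7894 and 3318 to 4582 in the same order.

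Members that turned sign under median-of-ratios scaling were AMD1 (0.13), SMS (0.26) and OAZ1 (0.37) in OGD against control, AMD1 (-0.17) and SMS (-0.080) in OGD/R against OGD, and AMD1 (-0.037) in OGD/R against control. With the length trend removed, AMD1 turned to 0.14, -0.20 and -0.060 in the 3 comparisons, OAZ1 to 0.085 in OGD/R against OGD and AZIN1 to -0.011 in OGD/R against control. OAZ1 also turned to 0.34 (quantile) and 0.11 (common sum) in OGD/R against OGD, and ODC1 to 0.035 (common sum) in OGD/R against control. Leaving out 1 library turned OAZ1 in OGD against control to 0.00253, 0.00721 and 0.0187 (without OGD replicate 1, OGD replicate 2 and control replicate 3; range -0.057 to 0.0187) and AMD1 in OGD/R against control to -0.0061 and -0.032 (without OGD/R replicate 2 and control replicate 2; range -0.032 to 0.16).

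Other genes that turned sign in OGD against control were ATP13A3 (0.16 median of ratios, 0.21 length), MAX (0.29, 0.28 and, quantile, 0.20) and SMOX (0.18, 0.069 and, quantile, 0.23). In OGD/R against OGD they were ATP13A3 (-0.11 and -0.32), MAX (-0.12 and -0.10), EIF5A2 (-0.019, -0.26 and, quantile, -0.13), EIF5A (-0.096 median of ratios) and PAOX (-0.051 median of ratios, -0.25 quantile). In OGD/R against control they were ARG2 (0.026 with a common sum, 0.000812 and 0.060 without control replicate 2 and 3; range -0.35 to 0.060), ATP13A3 (-0.10 length), SAT2 (0.022 length) and MAT2A (-0.063 median of ratios, -0.026 length, and -0.00782, -0.00999 and -0.032 without OGD/R replicate 2, OGD/R replicate 3 and control replicate 3; range -0.032 to 0.15).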
